A study of Homo sapiens with 6 samples.

Results

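Keratins are the intermediate filament proteins of epithelial cells, and their genes were compared between ARID1A-deficient and parental cells of L3.6pl, an established human pancreatic cancer line. The members were all rows whose symbol is KRT followed by a number and at most a letter from A to C, which leaves out keratin-associated proteins and pseudogenes. This gave 55 of 23273 rows, of which 34 were above 0 FPKM in at least 1 library and 16 reached the mean of 0.5 FPKM over the 6 libraries that was needed for a test. FPKM counts fragments per length of transcript and per size of library, so levels of different genes can be set beside each other. The 3 parental samples are labelled wild type and the 3 others ARID1A-deficient, with ARID1Ako in their titles. All 6 came from cells grown in medium with fetal calf serum, and the design text calls them treatment-naïve. The sources used here do not say how ARID1A was disrupted or whether the deficient samples are 1 clone, and nothing says that the samples of a group came from separate cultures, so p-values measure only the spread between these samples.

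A keratin filament is built from pairs of a type I (acidic) and a type II (basic) chain, whose genes lie in a cluster on chromosome 17 and a cluster on chromosome 12. The exception is KRT18, a type I gene that lies beside KRT8 on chromosome 12. Simple epithelia such as the pancreatic duct use KRT8 and KRT18 together with KRT7 and KRT19, whereas basal cells of stratified epithelia use KRT5 with KRT14 or KRT15. KRT6A, KRT16 and KRT17 are induced in wounded or rapidly dividing epithelium, and KRT4 with KRT13 marks the upper layers of moist stratified epithelium such as the oesophagus. In pancreatic cancer, KRT5, KRT6A and KRT17 are used as markers of the basal-like subtype.

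ARID1A transcript averaged 9.32 ± 2.52 FPKM in parental and 3.48 ± 0.179 FPKM in ARID1A-deficient libraries (SD, n = 3 each), 2.68-fold lower (adjusted p = 0.00610). Library totals ran from 576084 to 792187 FPKM, and library 2 had the highest total of its group in both groups. Fragment totals are not given. The spacing of the lowest values put the depth of the libraries at 0.732 to 1.27 times that of parental library 1. This holds only if FPKM was scaled by the fragments of each library itself, which is not stated. The line expressed the ductal markers KRT7, KRT8, KRT18, KRT19, EPCAM, CDH1 and MUC1 in all 6 libraries.

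Markers of other cell types were low beside the ductal keratins, and their part in the keratin results was not tested. The 5 fibroblast markers summed to 0.00749 to 0.0820 FPKM in parental and 0.149 to 0.336 FPKM in ARID1A-deficient libraries, with DCN and LUM at 0 in all 6. SPARC made up most of the difference, at 0.0387, 0 and 0 against 0.167, 0.133 and 0.291 FPKM (too low for the filter, and adjusted p = 0.0320 when every row above 0 was tested). The 4 leukocyte markers summed to 8.51 to 9.87 FPKM against 5.95 to 7.65 FPKM, nearly all of it CD68, while PTPRC and CD3E were at 0 in every parental library and did not exceed 0.0442 and 0.0627 FPKM. CD68 was lower (adjusted p = 0.0346), a call kept in 2 of the 6 fits without a library and lost with equal library totals (adjusted p = 0.0963) and with quantile normalization (adjusted p = 0.0562). The 3 endothelial markers summed to 8.43 to 10.01 FPKM against 8.64 to 9.23 FPKM. PECAM1 was lower (2.01 ± 0.152 to 1.24 ± 0.142 FPKM, SD, n = 3 each, adjusted p = 0.0254). That call was kept in 1 of 6 such fits and with quantile normalization (adjusted p = 0.0365), and lost with equal totals (adjusted p = 0.0629). The more abundant CDH5 measured 7.08 ± 0.945 and 7.62 ± 0.177 FPKM (adjusted p = 0.594). The 3 acinar markers summed to 5.57 to 7.91 FPKM against 4.87 to 7.33 FPKM, and limma called 0 of the 2 tested (unadjusted, 1 was higher and 1 lower at p under 0.05). The 7 ductal markers, 4 of them keratins, summed to 6296 to 9854 FPKM against 4549 to 5758 FPKM. With the values as deposited limma called 0 of them. Equal totals gave 4 lower and 1 higher (71.4%, against 11.5% of all tested genes). Quantile normalization gave 5 lower (71.4%, against 19.5%). Leaving out parental library 2 gave 3 lower and 1 higher (57.1%, against 31.8%). Unadjusted and as deposited, 5 of the 7 had a p under 0.05 by limma (71.4%, against 29.5% of all tested genes).

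Of the 16 tested keratins, 5 rose and 2 fell in ARID1A-deficient cells by limma, which tests every gene with a variance moderated across genes (Benjamini-Hochberg adjusted p under 0.05), and 9 did not pass. KRT13 and KRT5 fell, whereas KRT6A, KRT23, KRT81, KRT80 and KRT15 rose. That is 43.8% of the tested keratins, where 15.9% of the 12826 tested genes passed, 7.82% higher and 8.11% lower. The median log2 fold change was 0.01 for the 16 keratins and -0.01 for all tested genes. The groups did not overlap for 11 of the 16 keratins, or 68.8%, against 35.3% of all tested genes. KRT80 passed the filter on low values only through its level in ARID1A-deficient libraries, so its call adds little to this count. The lower count was 4 without parental library 2, when KRT8 and KRT19 also passed. It was 6 after each library was scaled to the same total FPKM, a setting that moved the median of all genes to -0.04, and also 6 with quantile normalization. Among all 12826 tested genes the lower count was 1040 as deposited. It was 2097 without parental library 2, 681 with equal totals and 1249 with quantile normalization.

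**Figure D1:**
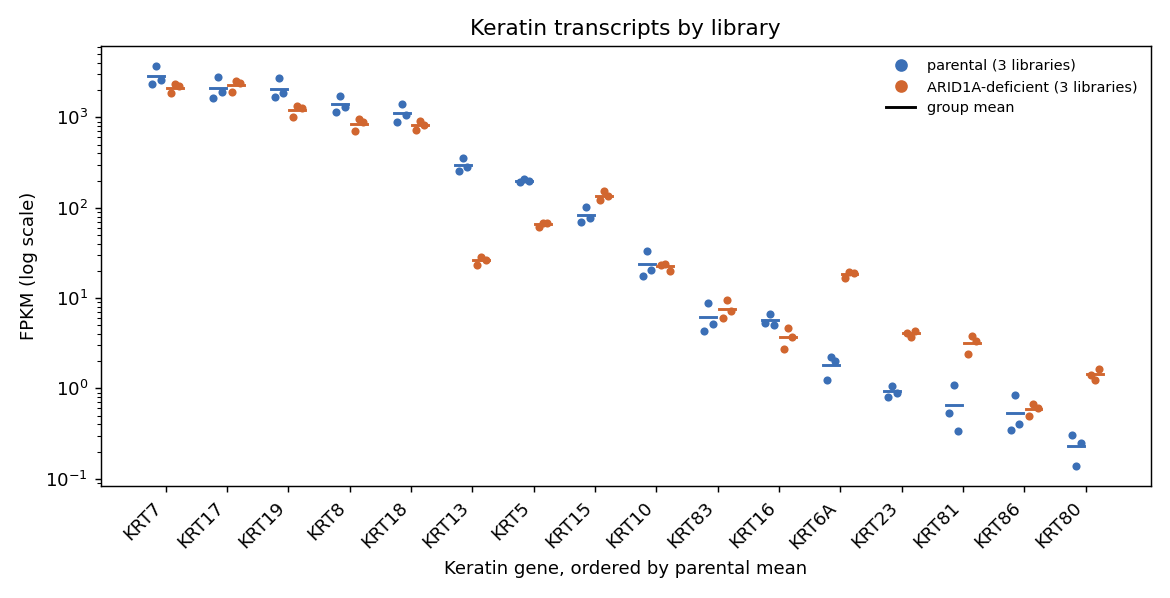
FPKM of the 16 tested keratins (y axis, log scale) in each library, with parental libraries in blue and ARID1A-deficient libraries in orange; points are libraries and lines are group means. KRT13 and KRT5 sit lower and KRT6A, KRT23, KRT81 and KRT80 higher in all 3 ARID1A-deficient libraries, while KRT7, KRT17, KRT19, KRT8 and KRT18 stay the 5 most abundant in both groups.

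The 4 ductal keratins and KRT17 made up most of the keratin transcripts. KRT7, a type II chain of ducts and glands, reached 2329, 3717 and 2631 FPKM in parental libraries 1, 2 and 3, against 1875, 2327 and 2223 FPKM in the ARID1A-deficient libraries in the same order. The lowest parental value only just exceeded the highest ARID1A-deficient one, and the log2 fold change of -0.41 (95% interval -0.997 to 0.177) did not pass (adjusted p = 0.327). KRT19, the type I chain that serves as a duct marker, measured 1671, 2705 and 1855 FPKM against 1014, 1323 and 1264 FPKM. Every ARID1A-deficient library lay below every parental library for KRT19. The means of 2077 ± 551 and 1200.2 ± 164 FPKM (SD, n = 3 each) gave a log2 fold change of -0.77 (SE 0.25, adjusted p = 0.0844).

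KRT8, the type II chain that all simple epithelia make, measured 1146, 1739 and 1312 FPKM against 709, 950.1 and 888 FPKM. The groups were separate, with a log2 fold change of -0.71 (SE 0.23, adjusted p = 0.0828). KRT18, its type I partner, measured 900.2, 1397 and 1060.1 FPKM against 718, 924 and 830.1 FPKM. Here ARID1A-deficient library 2 exceeded parental library 1, so the groups overlapped, and the log2 fold change was -0.42 (95% interval -0.95 to 0.10, adjusted p = 0.257). Parental library 2, whose FPKM total was also the highest, was the highest library for all 4 of these genes.

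The calls of the 4 ductal keratins depended on how the libraries were scaled. With each library set to the same total FPKM, KRT8 (adjusted p = 0.00250), KRT19 (adjusted p = 0.00282), KRT18 (adjusted p = 0.0142) and KRT7 (adjusted p = 0.0217) all passed as lower, with log2 fold changes of -0.73, -0.79, -0.45 and -0.43. They passed with quantile normalization as well (adjusted p from 0.000970 for KRT19 to 0.00434 for KRT18). Without parental library 2, as deposited, when 31.8% of all tested genes passed, KRT19 (adjusted p = 0.0399) and KRT8 (adjusted p = 0.0449) passed. Their log2 fold changes, -0.56 and -0.54, were then smaller than with all libraries. The direction was lower under all of these settings.

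KRT17, a type I keratin of basal and injured epithelium, was as abundant as the ductal keratins. It reached 1633, 2815 and 1904 FPKM in parental cells and 1912, 2504 and 2426 FPKM in ARID1A-deficient cells. The groups overlapped, the log2 fold change was 0.14 (95% interval -0.50 to 0.77, adjusted p = 0.788), and it turned to -0.03 without parental library 1. KRT17 was the 38th most abundant row of all by its mean in parental cells and the 35th in ARID1A-deficient cells.

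**Figure D2:**
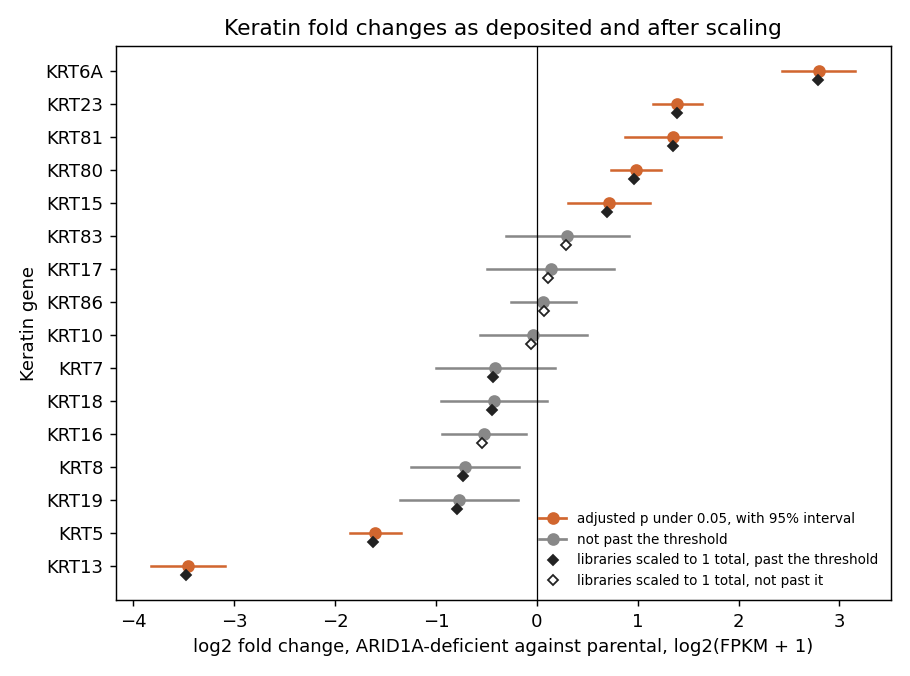
Log2 fold change of each tested keratin (x axis, ARID1A-deficient against parental on log2(FPKM + 1)), with circles and 95% intervals for the values as deposited and diamonds after each library was scaled to the same total FPKM. The positions barely differ between both scalings, but KRT7, KRT8, KRT18 and KRT19 are past the threshold only with the scaled libraries, between -0.43 and -0.79.

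Because a share or ratio within a library does not depend on the scaling of that library, the make-up of the keratin pool was also described, without a test. KRT17 contributed 19.9%, 21.5% and 20.3% of summed keratin FPKM in parental libraries and 29.4%, 30.0% and 30.6% in ARID1A-deficient libraries. KRT19 contributed 20.3%, 20.6% and 19.8% against 15.6%, 15.8% and 16.0%. Between groups the share of KRT17 was thus higher and that of KRT19 lower in every library. KRT8 went from 13.7 ± 0.402% to 11.2 ± 0.237% (SD, n = 3 each). The shares of KRT7, 28.3 ± 0.143% and 28.3 ± 0.530%, and of KRT18, 10.98 ± 0.330% and 10.9 ± 0.339%, overlapped between groups. KRT7, KRT8, KRT17, KRT18 and KRT19 together held 93.8 ± 0.594% of the parental and 96.1 ± 0.207% of the ARID1A-deficient pool. As shares they are not independent of each other, since less of some keratins raises the share of the others. The level of KRT17 itself differed little (log2 fold change 0.14, adjusted p = 0.788 by limma). All keratins together averaged 10228 FPKM in parental and 7587 FPKM in ARID1A-deficient libraries as deposited.

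All 55 keratins summed to 1.43%, 1.65% and 1.48% of the library's FPKM in parental cells and to 1.05%, 1.15% and 1.18% in ARID1A-deficient cells. The pool was thus a smaller part of the library in all 3 ARID1A-deficient samples. Type II chains amounted to 0.806, 0.765 and 0.797 of type I chains in parental libraries and to 0.699, 0.681 and 0.682 in ARID1A-deficient libraries, so type I chains exceeded type II chains in every library and did so by more in the deficient group. In bulk RNA, fewer cells with a keratin and less of its RNA per cell cannot be told apart.

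**Figure D3:**
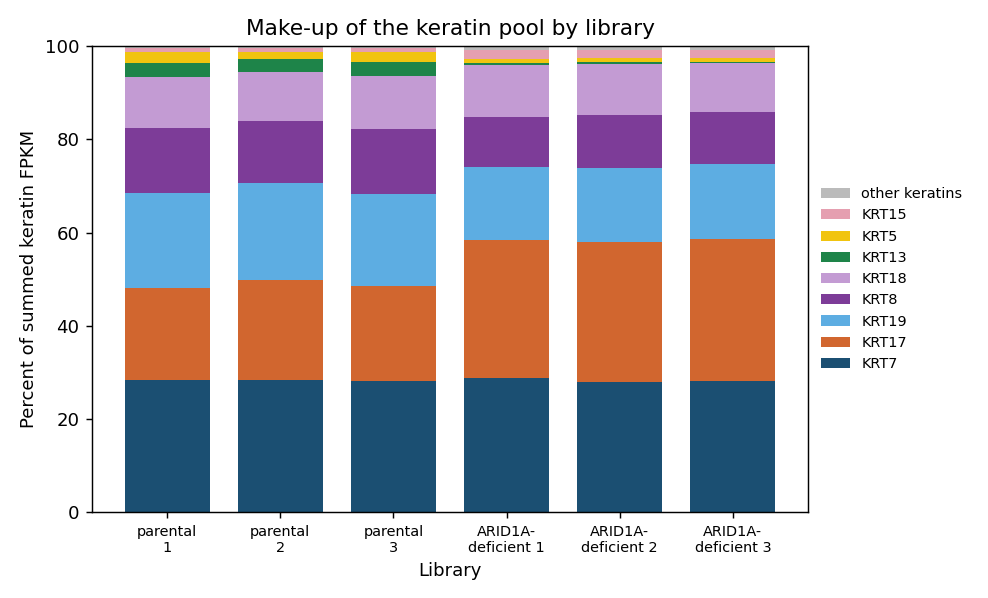
Percent of summed keratin FPKM (y axis) held by each of the 8 most abundant keratins and by all others, in a bar per library. The orange KRT17 segment is 19.9% to 21.5% of the parental bars and 29.4% to 30.6% of the ARID1A-deficient bars, and the green KRT13 segment nearly disappears.

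Ratios within a library separated the groups for each partner pair examined, again as a description. How often pairs of any genes separate in this way was not counted. For genes called in opposite directions, such as KRT5 and KRT15, a separate ratio adds nothing to their calls. KRT8 to KRT18 was 1.27, 1.24 and 1.24 in parental and 0.987, 1.03 and 1.07 in ARID1A-deficient libraries. KRT7 to KRT19 was 1.39, 1.37 and 1.42 against 1.85, 1.76 and 1.76. The first pair thus had relatively less of its type II chain in ARID1A-deficient cells, and the second relatively more. KRT19 to KRT17 was 1.02, 0.961 and 0.9747 in parental cells, near equal levels, and 0.530, 0.528 and 0.521 in ARID1A-deficient cells. In the GENCODE annotation KRT8 and KRT18 overlap on opposite strands, and the library kit does not keep strand, so reads of the overlap cannot be assigned to either gene. KRT18 shares 28.9% and KRT17 16.0% of the 50-base stretches of its transcript with other genes, pseudogenes among them. For KRT19 this was 1.79% and for KRT8 1.88%, so levels of KRT17 and KRT18 are less certain.

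**Figure D4:**
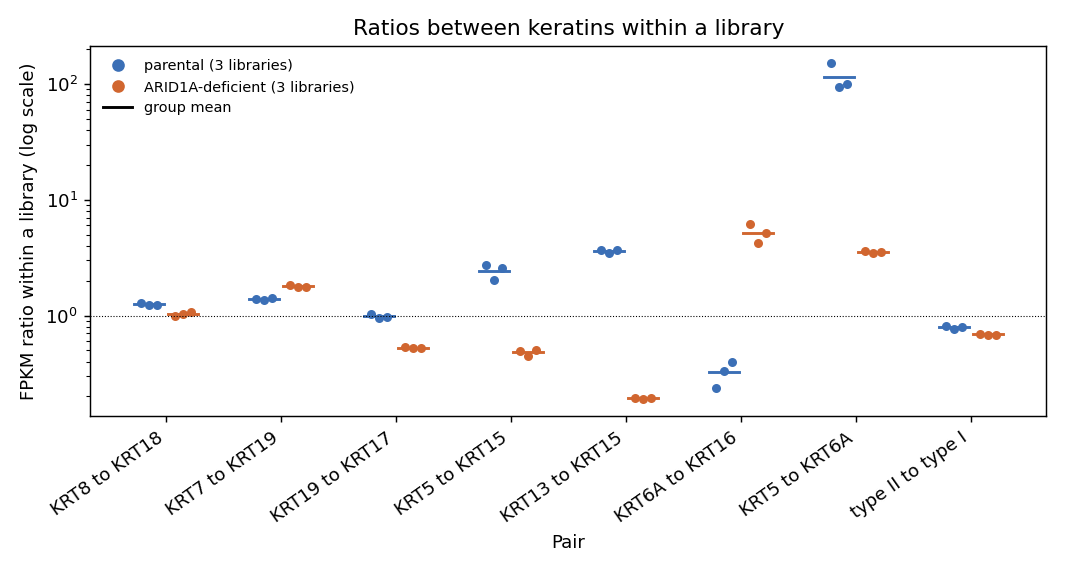
FPKM of a keratin or type over that of another in the same library (y axis, log scale), with parental libraries in blue, ARID1A-deficient libraries in orange and lines at group means. The groups are separate in all 8 comparisons, from KRT8 to KRT18 (means 1.25 and 1.03) to KRT5 to KRT6A (means 115 and 3.55). Some pairs, KRT5 and KRT6A among them, join genes called in opposite directions, so their separation adds nothing to those calls.

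Among keratins of stratified epithelium, 7 of 21 were tested, with 2 higher, 2 lower and 3 not past the threshold. That is 57.1% called, against 15.9% of all tested genes. KRT13, a type I keratin of moist stratified epithelium, measured 256, 358 and 286 FPKM in parental and 23.5, 28.9 and 26.1 FPKM in ARID1A-deficient libraries. The highest ARID1A-deficient library lay far below the lowest parental library. The fall was 11.5-fold (log2 fold change -3.46, SE 0.15, adjusted p = 2.66e-05), and KRT13 dropped from 2.97 ± 0.204% to 0.346 ± 0.0164% of the keratin pool (SD, n = 3 each). Its partner KRT4 was barely detected and under the level needed for a test, at 0.135, 0.215 and 0.198 FPKM against 0.608, 0.601 and 0.380 FPKM. KRT13 therefore had no type II partner from its usual pair at a comparable level in either group.

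KRT5, the type II chain of basal cells, fell as well. It measured 191, 208.5 and 200.3 FPKM in parental and 60.6, 67.9 and 67.7 FPKM in ARID1A-deficient libraries, with little spread inside either group. The fold was 3.06 lower (log2 fold change -1.60, SE 0.11, adjusted p = 0.000156). KRT14, the type I chain that pairs with KRT5 in basal cells, reached 0.501 FPKM at most. Sequences before the start site were at hand from RefSeq (build GRCh38.p14) for 34 of the 55 keratins and for 3 of the 16 tested, KRT5, KRT8 and KRT10. Those of KRT5, which fell, and of KRT10, another stratified keratin with a log2 fold change near 0, are shown as the 250 bases up to the start, 5′ to 3′ on the minus strand, at chr12:52520395-52520644 and chr17:40822615-40822864. Capitals mark ATAAAA or TATAAA, letters of the TATA box type, which helps position the start of transcription.
KRT5: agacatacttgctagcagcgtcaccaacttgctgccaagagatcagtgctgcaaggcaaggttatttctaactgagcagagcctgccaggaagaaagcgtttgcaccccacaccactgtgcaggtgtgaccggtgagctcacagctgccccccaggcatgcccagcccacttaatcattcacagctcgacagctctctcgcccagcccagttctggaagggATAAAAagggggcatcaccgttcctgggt
KRT10: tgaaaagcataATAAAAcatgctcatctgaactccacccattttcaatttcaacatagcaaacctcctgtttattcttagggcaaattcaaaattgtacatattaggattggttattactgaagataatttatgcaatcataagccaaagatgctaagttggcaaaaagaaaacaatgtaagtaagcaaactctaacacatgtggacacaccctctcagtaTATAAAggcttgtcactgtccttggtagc
Both strands were searched for the TATA box letters TATAAA, the similar letters ATAAAA, the GC box GGGCGG, the AP-1 motif TGANTCA and the TEAD motif CATTCC. The matches of TATAAA and of ATAAAA can overlap. KRT5 held ATAAAA beginning 29 bases before the start, and KRT10 held TATAAA at the same 29 bases and ATAAAA at 239 bases. Over 35116 promoter windows of that length, 10.7% held TATAAA, 14.8% ATAAAA, 42.6% GGGCGG, 6.57% TGANTCA and 11.9% CATTCC. The last 3 had no match in either window.

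KRT6A, a type II keratin of activated epithelium, rose from 1.25, 2.23 and 1.997 FPKM in parental to 16.7, 19.5 and 19.1 FPKM in ARID1A-deficient libraries. All 3 ARID1A-deficient libraries lay far above the highest parental library. The group means differed 10.1-fold (log2 fold change 2.79, SE 0.15, adjusted p = 6.44e-05). Its transcript shares 39.1% of its 50-base stretches with other genes, mainly KRT6C (35.2%) and KRT6B (28.5%), so part of its reads could be split between them. KRT6B reached 0.130 FPKM at most and KRT6C 0.0861 FPKM, which is little beside KRT6A in ARID1A-deficient cells.

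KRT16, the type I chain induced together with KRT6A in wounds, did not move the same way. It measured 5.28, 6.68 and 5.04 FPKM in parental and 2.71, 4.63 and 3.69 FPKM in ARID1A-deficient libraries. All 3 ARID1A-deficient libraries were below the parental ones, with a log2 fold change of -0.52 (SE 0.18, adjusted p = 0.0954). The KRT6A to KRT16 ratio was 0.238, 0.334 and 0.396 in parental and 6.15, 4.22 and 5.18 in ARID1A-deficient libraries. KRT16 exceeded KRT6A in every parental library, and KRT6A exceeded KRT16 in every ARID1A-deficient library. KRT16 shares 11.3% of its 50-base stretches with KRT14 and 13.04% with the pseudogene KRT16P3.

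KRT15, a type I keratin of basal and progenitor cells, rose 1.63-fold. It measured 70.2, 102 and 77.7 FPKM in parental and 122, 153 and 135 FPKM in ARID1A-deficient libraries, with no overlap. Its log2 fold change was 0.71 (SE 0.17, adjusted p = 0.0325). The call held without parental library 2 (adjusted p = 0.00128) but ended when parental library 1 (adjusted p = 0.0779), parental library 3 (adjusted p = 0.133) or ARID1A-deficient library 1 (adjusted p = 0.0633), 2 (adjusted p = 0.124) or 3 (adjusted p = 0.121) was left out, which leaves KRT6A alone as the higher member of the stratified class. It passed with each library scaled to the same total (adjusted p = 0.00132). KRT5 to KRT15, a partner pair of basal cells, went from 2.73, 2.03 and 2.58 to 0.498, 0.444 and 0.501. KRT5 thus exceeded KRT15 in every parental library, and KRT15 exceeded KRT5 in every ARID1A-deficient library.

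KRT10, the type I chain of differentiated skin layers, measured 17.5, 33.4 and 20.6 FPKM against 23.4, 23.8 and 20.1 FPKM. Parental library 2 held the highest value, the groups overlapped, and the log2 fold change was -0.04 (95% interval -0.56 to 0.49), with its sign depending on the libraries used (0.22 without parental library 2) and on the scaling (0.00 with quantile normalization). KRT1, its usual type II partner, was listed at 0 in all 6 libraries.

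Opposite changes occurred between neighbours on both chromosomes. KRT13 and KRT15 are adjacent protein-coding genes on chromosome 17, followed by KRT19. KRT13 to KRT15 was 3.65, 3.49 and 3.68 in parental and 0.194, 0.189 and 0.193 in ARID1A-deficient libraries, so the order of this pair turned around with nearly the same ratio in all 3 libraries of a group. On chromosome 12, KRT6A and KRT5 are adjacent, and KRT5 to KRT6A went from 153, 93.4 and 100.3 to 3.63, 3.48 and 3.54. Of 9 tested keratins on chromosome 12, the type I gene KRT18 included, 3 rose and 1 fell. Of 7 on chromosome 17, 2 rose and 1 fell. KRT80, among those that rose on chromosome 12, passed the filter only through its ARID1A-deficient level. Among all tested genes 7.82% rose and 8.11% fell. Gene order was taken from RefSeq for GRCh38, since the deposited values carry no positions.

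The simple keratins KRT23 and KRT80 rose from low levels, and they were the only 2 of the 6 tested simple keratins to pass with the values as deposited. This makes 33.3%, against 15.9% of all tested genes. KRT80 passed the filter only through its level in ARID1A-deficient libraries, so its call adds little to this share. KRT23, a type I keratin of glandular epithelia, measured 0.808, 1.08 and 0.890 FPKM in parental and 4.12, 3.74 and 4.31 FPKM in ARID1A-deficient libraries. Its fold was 4.39 (log2 fold change 1.39, SE 0.10, adjusted p = 0.000223). KRT80, a type II keratin found in many epithelia, measured 0.305, 0.137 and 0.246 FPKM against 1.41, 1.23 and 1.65 FPKM. The groups were separate, with a log2 fold change of 0.98 (SE 0.10, adjusted p = 0.00128). On the log2(FPKM + 1) scale changes of such low genes are understated: with a pseudocount of 0.1 the log2 fold changes were 2.03 for KRT23 and 2.24 for KRT80.

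Hair keratins, which form the hair shaft, are 17 genes of which 3 were tested, with 1 higher, 0 lower (also 0 at an unadjusted p under 0.05 by limma) and 2 not past the threshold. The called share was 33.3%, against 15.9% of all tested genes. KRT81, a type II hair keratin, measured 0.537, 1.08 and 0.338 FPKM in parental and 2.38, 3.84 and 3.32 FPKM in ARID1A-deficient libraries. The rise was 4.88-fold (log2 fold change 1.35, SE 0.20, adjusted p = 0.00550). KRT86 overlaps KRT81 on the opposite strand and shares 38.4% of the 50-base stretches of KRT81, so reads of these genes may be exchanged. In the GENCODE annotation KRT86 also overlaps the far more abundant KRT7 on the same strand. Whether reads of KRT7 add to the KRT86 value was not tested. KRT86 itself measured 0.347, 0.841 and 0.407 FPKM against 0.490, 0.666 and 0.609 FPKM, with overlapping groups (log2 fold change 0.06, and -0.00455 with quantile normalization). KRT83 measured 4.27, 8.90 and 5.21 FPKM against 6.08, 9.56 and 7.12 FPKM, without a call (log2 fold change 0.30, adjusted p = 0.499), and it passed when parental library 2 was left out (adjusted p = 0.0329, log2 fold change 0.57).

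The other 39 keratins did not reach the filter, and 21 of them were listed at 0 in all 6 libraries. No keratin of the inner root sheath exceeded 0.0534 FPKM. Of the low rows, KRT20, a type I keratin of intestinal epithelium, measured 0, 0.104 and 0 FPKM in parental and 0.288, 0.448 and 0.205 FPKM in ARID1A-deficient libraries. KRT222, a keratin-like gene at the edge of the type I cluster, had a listed value of 0 in all 3 parental libraries, against 0.302, 0.176 and 0.322 FPKM in ARID1A-deficient cells. With no filter on low values, KRT222 (adjusted p = 0.00713), KRT4 (adjusted p = 0.0225) and KRT20 (adjusted p = 0.0341) passed as higher. These values rest on few fragments, and a listed 0 can be a failed estimate.

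By level, the order of keratins in parental cells was KRT7, KRT17, KRT19, KRT8, KRT18, KRT13, KRT5, KRT15, KRT10, KRT83, KRT16, KRT6A, KRT23, KRT81, KRT86 and KRT80. Ranges of neighbours overlapped from KRT7 down to KRT18, between KRT83 and KRT16, and from KRT23 to KRT86. In ARID1A-deficient cells the order was KRT17, KRT7, KRT19, KRT8, KRT18, KRT15, KRT5, KRT13, KRT10, KRT6A, KRT83, KRT23, KRT16, KRT81, KRT80 and KRT86. There the ranges of KRT17 and KRT7, KRT8 and KRT18, KRT13 and KRT10, KRT23 and KRT16, and KRT16 and KRT81 overlapped. KRT13, the 6th keratin in parental cells, was the 8th in ARID1A-deficient cells, where its range met that of KRT10.

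Among other intermediate filament genes, limma called 2 of 9 tested higher and 0 lower (median log2 fold change 0.27). That is 22.2%, against 15.9% of all tested genes. At an unadjusted p under 0.05, 4 were higher and 1 lower, or 55.6%, against 29.5% of all tested genes. NES, which encodes nestin of progenitor cells, measured 0.697, 1.02 and 0.970 FPKM against 2.37, 2.63 and 2.72 FPKM (log2 fold change 0.92, SE 0.11, adjusted p = 0.00182). NEFL, the light neurofilament chain, measured 0.445, 0.519 and 0.568 FPKM against 1.52, 1.25 and 1.65 FPKM (adjusted p = 0.00413). VIM, the mesenchymal filament vimentin, was expressed beside the keratins at 690, 850.2 and 720 FPKM against 857, 959 and 907 FPKM. Its log2 fold change of 0.27 (SE 0.17) did not pass as deposited (adjusted p = 0.328) or with equal library totals (adjusted p = 0.0812). With quantile normalization VIM passed as higher, just under the threshold (adjusted p = 0.0498). VIM was thus lower than KRT18 in every parental library and higher than KRT18 in every ARID1A-deficient library.

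Of 17 tested genes listed as keratin anchors or linkers, 3 rose, 2 fell and 12 were not called (median log2 fold change -0.02). Thus 29.4% passed, against 15.9% of all tested genes. At an unadjusted p under 0.05 by limma, 3 were higher and 2 lower. That is again 29.4%, near the 29.5% of all tested genes. The called members include MACF1 and PRKCDBP, which are not keratin anchors in the strict sense. EPPK1, which encodes epiplakin, a keratin-binding protein that reorganizes filaments, measured 10.8, 5.93 and 8.13 FPKM in parental and 0.618, 0.638 and 0.516 FPKM in ARID1A-deficient libraries. All 3 ARID1A-deficient values were far below the parental ones, a 14.0-fold fall (log2 fold change -2.51, SE 0.19, adjusted p = 0.000289). PPL, which encodes periplakin, a desmosome-linked plakin, fell 2.43-fold from 27.9, 19.2 and 24.0 to 9.85, 9.11 and 10.3 FPKM (adjusted p = 0.00192).

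DST, which encodes dystonin, the plakin that ties keratins to hemidesmosomes, rose 3.59-fold from 2.92, 1.76 and 2.57 to 9.93, 7.65 and 8.41 FPKM (adjusted p = 0.00128). The other members that rose are not keratin anchors in the strict sense: MACF1 encodes an actin and microtubule crosslinker of the plakin family (adjusted p = 0.0166), and PRKCDBP a caveola protein (adjusted p = 0.0165). Leaving out parental library 3 or ARID1A-deficient library 3 ended both calls, ARID1A-deficient library 1 that of MACF1 and ARID1A-deficient library 2 that of PRKCDBP (adjusted p of up to 0.0759 for MACF1 and 0.0753 for PRKCDBP). With either library 3 left out 1 member was higher and 17.6% of the list passed. Of all tested genes, 7.94% passed without parental library 3 and 7.52% without ARID1A-deficient library 3. With parental library 2 left out 5 members were higher and 47.1% of the list passed, against 31.8% of all tested genes. MACF1 also missed the threshold with each library scaled to the same total (adjusted p = 0.0830). DSP, the main desmosomal keratin anchor, measured 13.8, 7.95 and 11.1 FPKM against 13.9, 11.2 and 11.8 FPKM, and PLEC, the linker plectin, 67.2, 48.3 and 53.4 FPKM against 48.5, 49.3 and 52.9 FPKM. Both overlapped between groups and did not pass (adjusted p = 0.584 and 0.528).

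Of 18 tested transcription factors known to act in epithelia that express keratins, 4 rose, 2 fell and 12 were not called (median log2 fold change 0.06), so that 33.3% passed, against 15.9% of all tested genes. ELF3, an epithelial ETS factor, measured 114, 130 and 119 FPKM in parental and 21.4, 24.6 and 22.0 FPKM in ARID1A-deficient libraries, a 5.34-fold fall (log2 fold change -2.37, SE 0.10, adjusted p = 2.23e-05). EHF, a related ETS factor, went the opposite way, from 19.3, 13.8 and 18.0 to 46.2, 37.3 and 41.0 FPKM (2.44-fold higher, adjusted p = 0.00186). NFE2L2, which encodes NRF2, a regulator of stress-response genes, rose 2.14-fold to 83.9 ± 6.57 FPKM (SD, n = 3; adjusted p = 0.00192).

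GRHL3, a factor of the epidermal barrier, rose from 0.151, 0.249 and 0.250 to 1.04, 1.15 and 1.09 FPKM (adjusted p = 0.00128). It passed the filter only through its ARID1A-deficient level, so its call adds little to the share of the list. PAX9, a factor of oesophageal and oral epithelium, fell from 3.65, 3.08 and 3.42 to 1.91, 0.959 and 1.19 FPKM (adjusted p = 0.00999), a call that ended without ARID1A-deficient library 3 (adjusted p = 0.0570). TP63, the factor that maintains basal cells and KRT5 and KRT14 expression, measured 32.1, 18.7 and 27.2 FPKM against 17.8, 14.3 and 14.8 FPKM. The groups were separate, the log2 fold change was -0.67 (SE 0.20), and the adjusted p was 0.0625. Without parental library 2 the adjusted p was 0.000903 and the lower count of the list was 4. In that setting 31.8% of all tested genes passed. KLF4, a factor of differentiating epithelium, measured 3.19, 2.54 and 2.72 FPKM against 3.54, 3.59 and 4.15 FPKM, without a call (adjusted p = 0.101).

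**Figure D5:**
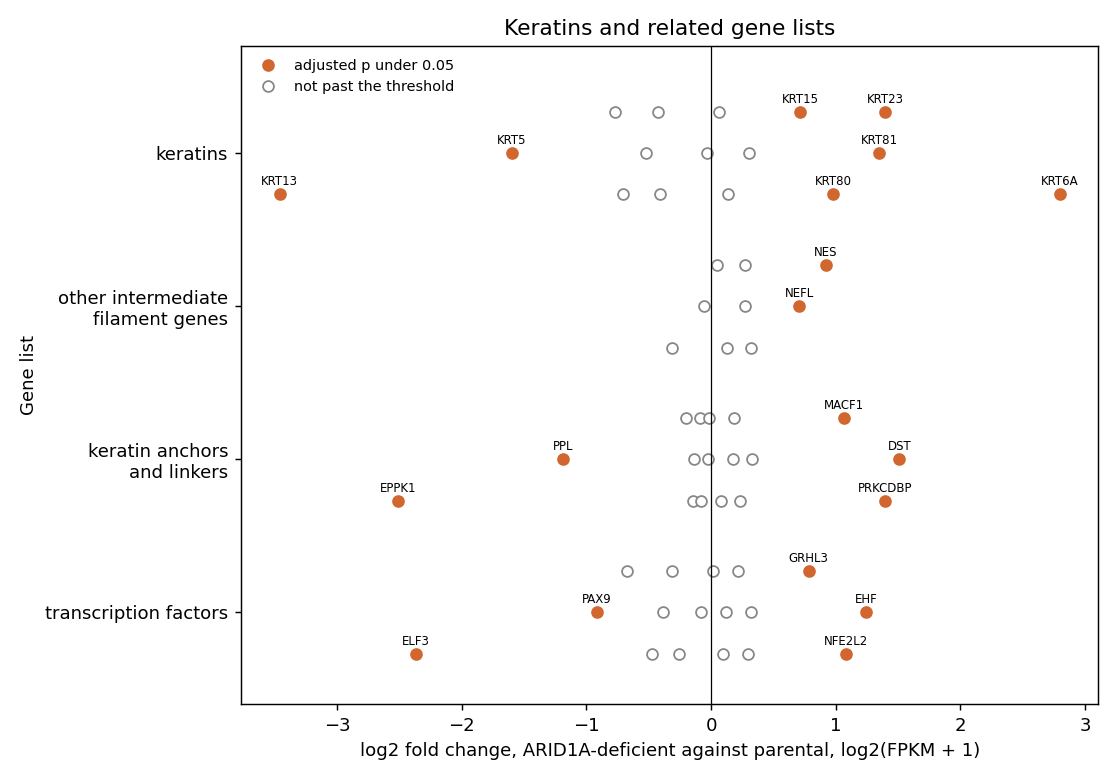
Log2 fold change (x axis, ARID1A-deficient against parental on log2(FPKM + 1)) of every tested keratin, other intermediate filament gene and keratin anchor or linker, and of the tested transcription factors except 1 that is not shown; filled points are past an adjusted p of 0.05. Called keratins range from -3.46 for KRT13 to 2.79 for KRT6A, and each list has most of its members between those extremes without a call.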

How the data were processed

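RNA was isolated with TRIzol and made into libraries with a TruSeq version 2 kit, which does not keep strand, per the labels' protocols. The authors deposited FPKM values by gene symbol, in a table for each sample. The submitters' processing notes name TopHat2 2.1.1, Cuffnorm 2.2.1.2 as well as Cuffdiff 2.2.1.5, and build GRCh37 (hg19). Which annotation and which library scaling they used is not stated there. FPKM cannot show a change of total RNA per cell.

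In 28 rows the symbol had become a date, and these were left out. Groups and replicate numbers came from the sample titles. log2(FPKM + 1) was tested with limma 3.58.1 (R 4.3.3), with a mean-variance trend, robust moderation and group as the only term, for the 12826 genes whose mean reached 0.5 FPKM. P-values are two-sided and Benjamini-Hochberg adjusted (threshold 0.05). A fold is the ratio of group means in FPKM. The fit was tested on simulated data. Described were all tested keratins, low keratins above 0, called members of the related lists (1 is not reported here), and VIM, DSP, PLEC, TP63 and KLF4. The members and lists were chosen with earlier results of these data known. Shared stretches were counted on the longest coding transcript in GENCODE 29. Alternatives were the pseudocount, the filter, the scaling, plain moderation, a replicate term and leaving out each library.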

Additional observations from a re-analysis of the deposited data

How the results depend on the processing

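KRT13, KRT5, KRT6A, KRT23, KRT81 and KRT80 kept their direction and call in all 6 fits that left out a library. With no filter 8 keratins were higher, and with a minimum mean of 3 FPKM 2 were, since fewer low genes were tested. That minimum left 0 simple keratins, 0 hair keratins and 0 other intermediate filament genes higher, 1 transcription factor lower and 667 of all genes higher. With equal library totals 6 keratins, of which 4 were simple keratins, and 681 of all genes were lower. Quantile normalization gave 6 and 4 as well, and 1249 of all genes lower. The cause was not tested. Quantile normalization turned the log2 fold changes of KRT10 to 0.00178 and of KRT86 to -0.00455.

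Leaving out each library gave 4 to 6 keratins higher and 2 to 4 lower, 531 to 1982 of all genes higher and 433 to 2097 lower, with the fewest without ARID1A-deficient library 3 and the most without parental library 2. The ranges were 0 to 2 simple keratins lower, 1 to 2 stratified keratins higher, 1 to 2 hair keratins higher, 0 to 1 other intermediate filament genes lower, 1 to 5 anchors or linkers higher and 1 to 4 transcription factors lower. Log2 fold changes ran from -0.22 to 0.22 for KRT10, -0.0317 to 0.361 for KRT17, -0.0211 to 0.204 for KRT86 and -0.0139 to 0.348 for DSP.

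Same-numbered libraries deviated together with correlations of 0.219, 0.217 and -0.0131 across genes. Libraries 1 and 2 of each group correlated best with their own number in the other group. Parental library 3 and ARID1A-deficient library 3 correlated best with other numbers. The labels pair the libraries by number only, and whether the numbers mark a shared batch was not tested. With the replicate block 6 keratins were lower, 3 of them simple keratins, and 2 hair keratins were higher. It added calls for KRT16 (adjusted p = 0.00162), KRT8 (0.00188), KRT19 (0.00185), KRT18 (0.0412) and TP63 (0.000106) as lower and KRT83 (0.0381) and KLF4 (0.0416) as higher, and 5 of the 7 ductal markers were lower and 1 higher. The block also gave 1 other intermediate filament gene and 5 transcription factors lower, and 1861 of all genes higher and 2188 lower. Fragment totals are not given, so the precision of low rows is unknown.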
